A study of Mus musculus with 12 samples.

Results

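Oxidative phosphorylation is the process by which mitochondria turn the oxidation of nutrients into ATP. Complexes I to IV of the inner membrane pass electrons from NADH and succinate to oxygen and, except complex II, pump protons, and complex V, the ATP synthase, uses the returning protons to make ATP. All of these complexes but complex II are built from subunits of both genomes, and neurons depend on them heavily for synaptic transmission. The genes described here are the 98 protein-coding genes of the count table whose symbols mark them as subunits (Nduf a, b, c, s and v, Sdh a to d, Uqcr, Cox4 to Cox8, Atp5 and mt-), out of 55573 genes in all. Of these, 85 are encoded in the nucleus and 13 on the mitochondrial genome. By complex, the nuclear genes number 37 in complex I, 4 in complex II, 8 in complex III, 18 in complex IV and 18 in complex V, and the mt- genes number 7, 0, 1, 3 and 2.

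RNA came from the right hippocampus, taken whole, of 12 mice aged 4.5 months, labelled C57BL/6J, each 1 library. Of these, 4 females and 4 males were APP/PS1, and 2 animals of each sex were WT. APP/PS1 mice carry 2 transgenes linked to familial Alzheimer's disease (APPSwe/PS1dE9), driven by a prion promoter element, and WT mice carry neither. Each sex therefore rests on 2 WT animals, and it was asked whether the transcripts of the respiratory chain differ with genotype and sex. Libraries were directional and poly-A enriched, and total counts on genes ranged from 36714316 to 50643565. Levels are given as CPM, counts relative to the upper-quartile scaled library size, and "per kb" means divided by the gene's exonic length. Neuronal markers (12 genes) summed to between 8881 and 9868 CPM and hippocampal subfield markers (8 genes) to between 602.5 and 804.7 CPM in the 12 libraries. In APP/PS1 female 1, WT female 2 and APP/PS1 male 2 the 15 choroid plexus markers summed to between 4095 and 7277 CPM, against 29.5 to 49.4 CPM in the other 9. Microglial markers (8 genes) summed to between 561.6 and 933.4 CPM in APP/PS1 libraries and between 382.6 and 511.8 CPM in WT libraries. In whole tissue, a smaller share of cells of a type and less RNA per cell cannot be told apart.

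The transcripts of this pathway were abundant and differed little between the genotypes. The filter on expression (log2 CPM of 1 or more in 3 libraries or more) left 89 of the 98 genes for testing, 78 nuclear and 11 mitochondrial. Not tested were Cox4i2, Cox7a1, Cox7b2, Cox8b, Cox8c, Ndufa4l2, a second identifier of Atp5o, mt-Atp8 and mt-Nd4l. With both sexes averaged, 0 of these 89 genes were called differentially expressed between APP/PS1 and WT at an FDR under 0.1 (edgeR's quasi-likelihood test). Of all 14008 genes tested, 1.85% were called, a share that gives few or no calls in a list of this size. At an unadjusted p under 0.05 the count was also 0, against 9.47% of all genes, and DESeq2 and edgeR's likelihood ratio test called 0. The median log2 fold change was -0.0016 for the nuclear genes and -0.04 for the mt- genes, beside 0.01 for all genes tested. The 95% intervals had a median half-width of 0.12 on the log2 scale, and for 80 of the 89 genes the whole interval lay within 0.25 of 0. For those 80 genes a change of more than 0.25 in log2 is outside the interval, whereas the other 9 were measured less precisely. These intervals hold for the main fit, which also removes variation along 2 fitted factors described below.

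**Figure D1:**
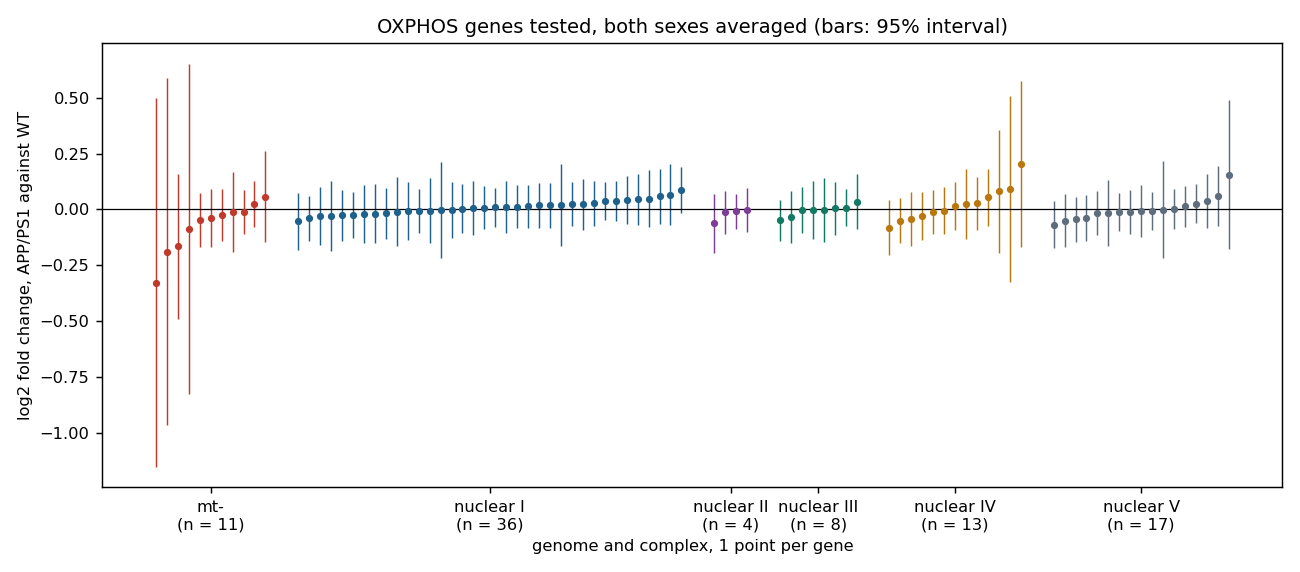
Each point is 1 of the 89 OXPHOS genes tested, grouped along the horizontal axis by genome and complex and ordered by value; the vertical axis is the log2 fold change of APP/PS1 against WT averaged over the sexes, and bars are 95% intervals of the edgeR fit. Values ran from -0.33 to 0.20, every interval includes 0, and the 3 widest bars belong to mt- genes of low count.

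The level of the pathway spanned a wider range among the APP/PS1 males than among the group means. Those means ran from 39480 to 44580 CPM for the mt- genes and from 10063 to 10674 CPM for the nuclear genes. The 13 mt- genes summed to 38285, 39852, 43844 and 49496 CPM in the APP/PS1 females and to 38564 and 40396 CPM in the WT females. They summed to 50610, 47745, 43280 and 34434 CPM in the APP/PS1 males and to 49138 and 40023 CPM in the WT males. The highest and the lowest library were thus both APP/PS1 males, 1.47-fold apart, and WT values lay inside the APP/PS1 range in each sex. The nuclear genes summed to 9885, 10146, 10800 and 11290 CPM in APP/PS1 females and to 9618 and 10507 CPM in WT females. In APP/PS1 males the nuclear sums were 11065, 11381, 10714 and 9390 CPM, and in WT males they were 11055 and 10294 CPM. The nuclear sums spanned 1.21-fold, WT female 1 fell just below the APP/PS1 females, and APP/PS1 male 4 was the lowest library for both genomes. APP/PS1 female 4, APP/PS1 males 1 and 2 and WT male 1 were the 4 highest for both genomes. The ratio of the mt- sum to the nuclear sum ran from 3.67 in APP/PS1 male 4 to 4.57 in APP/PS1 male 1. All 5 complexes took part in this spread, with nuclear complex IV at 1920 CPM in APP/PS1 male 4 and 2534 CPM in APP/PS1 male 2, and complex II at 642.7 and 717.8 CPM in the same animals.

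**Figure D2:**
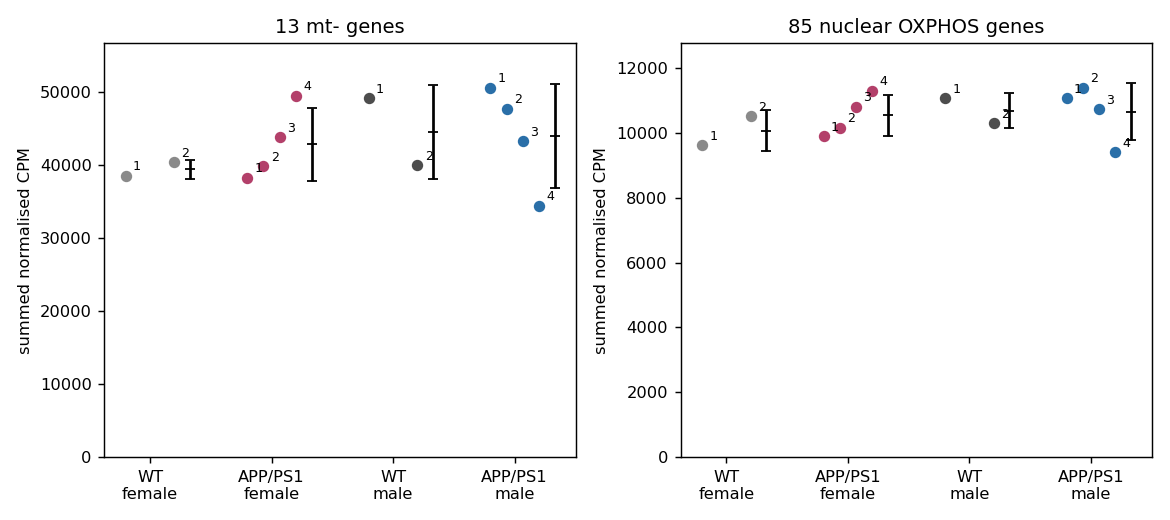
Summed normalised CPM of the 13 mt- genes (left) and the 85 nuclear OXPHOS genes (right); each point is 1 library, numbered by replicate, and the black bars are the mean and SD of each group. The APP/PS1 male libraries span 34434 to 50610 CPM for the mt- genes, a range that holds the other 8 libraries, and the order of libraries is similar on both sides.

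This spread moved with the second of the 2 RUV factors, which stand in the model for unwanted variation. The control genes behind the factors left out only the leading genes of an initial test, not the OXPHOS genes as a class. OXPHOS genes can thus help to define the second factor, so part of this match may be built in. The main fit also removes variation along that factor, whether or not it is unwanted. For the 4 libraries with the highest sums, that factor was 0.54 (APP/PS1 female 4), 0.37 (APP/PS1 male 2), 0.24 (WT male 1) and 0.21 (APP/PS1 male 1), and for the lowest, APP/PS1 male 4, it was -0.45. Without RUV factors the nuclear median was 0.04 with 66 of 78 genes positive, and the mt- median was 0.04 with 9 of 11 positive. In the main fit 37 of 78 nuclear and 2 of 11 mt- genes were positive, beside 54.5% of all genes. Without the 3 libraries rich in choroid plexus transcripts, fitted without RUV factors and with a lone WT female, 74 of 77 nuclear genes were positive at a median of 0.07, beside 57.7% of all genes. No OXPHOS gene was called in that fit, in which 66 of all 13726 genes were. In females that fit gave a nuclear median of 0.19 with 76 of 77 genes positive, where 56.1% of all genes were, against WT female 1 alone, the lower of the WT females. The sign of the averaged medians thus changed with the model. In females the nuclear median was above 0 in the main fit (0.04) and without RUV factors (0.09) too. The part of cell composition or RNA handling in the spread was not tested.

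Within females, 0 of 89 genes were called, where 0.778% of all genes were, and 0 had an unadjusted p under 0.05, against 9.54% of all genes (edgeR). The nuclear median was 0.04 with 58 of 78 genes positive and the mt- median was 0.06 with 7 of 11 positive, beside 54.7% of all genes. Without WT female 1 these turned to -0.04 with 19 of 78 and -0.03 with 5 of 11 positive, and without WT female 2 they were 0.09 and 0.11. All 4 APP/PS1 females lay above both WT females for 8 of the 89 genes and below them for 0, where 12.5% and 6.61% of all genes did so. Within males, 0 of 89 were called, against 0.157% of all genes, and 2 had an unadjusted p under 0.05, against 5.15%. The male medians were -0.02 with 17 of 78 nuclear genes positive and -0.09 with 2 of 11 mt- genes positive, beside 51.7% of all genes. They turned to 0.03 with 54 of 78 and 0.03 with 6 of 11 positive without APP/PS1 male 4, and to 0.01 with 45 of 78 and 0.07 with 8 of 11 positive without WT male 1. The APP/PS1 males lay above both WT males for 0 of the 89 genes and below them for 1 (Uqcrc1), where 6.5% and 4.34% of all genes did so. Intervals were wider than in the averaged comparison, with a median half-width of 0.17 in females and 0.16 in males in log2. The whole interval lay within the bound used there for 57 of the 89 genes in females and 64 in males. For the others a change beyond that bound is not excluded.

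The difference between the sexes in the effect of genotype was tested itself. By edgeR, 0 of 89 genes had an interaction FDR under 0.1, as did 0% of all genes, and 3 had an unadjusted p under 0.05, against 3.58% of all genes. The intervals of the interaction were wider still, with a median half-width of 0.24 in log2. For 21 of the 89 genes the whole interval lay within the bound used for the averaged comparison. For the others an interaction beyond that bound is not excluded. The interaction was positive for 63 of 78 nuclear genes, with a median of 0.06, and for 8 of 11 mt- genes, with a median of 0.15, beside 53.8% of all genes. These values moved with single animals. Without WT female 1 the nuclear interaction median turned to -0.04 with 27 of 78 positive and the mt- median was 0.03 with 6 of 11 positive. Leaving out each animal in turn, the nuclear interaction median ran from that -0.04 to 0.11 without WT male 2. The mt- median ran from that 0.03 to 0.32 without APP/PS1 male 1. Without the libraries rich in choroid plexus transcripts, with a lone WT female and no RUV factors, the nuclear interaction median was 0.23. Females against males gave 0 calls in WT, where 0.05% of all genes were called, and 0 in APP/PS1, where 0.0857% were called. At an unadjusted p under 0.05 the counts were 0 in WT, against 4.49% of all genes, and 4 in APP/PS1 (mt-Co2, mt-Co3, mt-Nd6 and Atp5mpl), against 5.32%. In WT, 14 of 78 nuclear and 0 of 11 mt- genes were higher in females, beside 47.3% of all genes. In APP/PS1 these were 45 of 78 and 8 of 11, beside 52.8%. The nuclear median in WT was -0.06 and turned to 0.05 without WT female 1.

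The mitochondrial genome encodes 7 subunits of complex I, cytochrome b of complex III, the 3 catalytic core subunits of complex IV and 2 subunits of complex V. Counts of its genes fell into groups of very unequal level. mt-Co1, the catalytic subunit of cytochrome c oxidase, averaged 18299 CPM and was 42.6% of the mt- sum. Next came mt-Cytb at 7145 CPM, mt-Nd1 at 5641 CPM, mt-Nd5 at 4380 CPM, mt-Nd2 at 3805 CPM and mt-Nd4 at 3505 CPM. mt-Nd6, the only protein gene read from the light strand, averaged 174.7 CPM. The other 6 were counted near the floor. mt-Co3 was at 7.66 CPM, mt-Co2 at 6.21 CPM, mt-Atp6 at 4.58 CPM, mt-Nd3 at 3.14 CPM, mt-Nd4l at 0.961 CPM and mt-Atp8 at 0.396 CPM. These 6 made up 0.0534% of the mt- sum. They lie next to each other on the same heavy strand transcript as mt-Co1 and mt-Nd4. The mt- sum, its shares and its ratio to the nuclear sum thus in effect leave these 6 genes out.

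The 6 genes of low count also stand apart in sequence. In GRCm38, chromosome 1 holds a nuclear copy of a stretch of the mitochondrial genome, annotated as unprocessed pseudogenes between bases 24611535 and 24615565. For mt-Co2, mt-Atp6, mt-Co3, mt-Nd3 and mt-Nd4l, annotated copies of at least 99% identity covered between 98.99% and 99.9% of the gene. The first 60 bases of mt-Co2 (chrM:7013-7072, plus strand, GRCm38) and the same stretch of its copy Gm28661 (chr1:24615506-24615565, minus strand) are shown because they hold 0 differences.
mt-Co2: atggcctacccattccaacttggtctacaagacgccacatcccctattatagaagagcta
Gm28661: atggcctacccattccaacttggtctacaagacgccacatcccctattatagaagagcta
Coverage was 63.6% for mt-Nd4 and 31.3% for mt-Co1, and it was 0% for mt-Nd1, mt-Nd2, mt-Nd5, mt-Nd6 and mt-Cytb. The best copy of mt-Cytb, Gm11410 on chromosome 4, was 92.9% identical, and 3 of 60 bases, given in capitals, differ from chrM:14146-14205 (plus strand) to chr4:80003990-80004049 (plus strand).
mt-Cytb: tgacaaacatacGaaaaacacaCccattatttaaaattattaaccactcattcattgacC
Gm11410: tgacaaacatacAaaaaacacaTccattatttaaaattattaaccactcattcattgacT
mt-Atp8 had no annotated copy, but it lies between mt-Co2 and mt-Atp6 and 21.1% of it overlaps mt-Atp6. The chromosome 1 copies were themselves counted at low levels, Gm28661 between 6.49 and 20.9 CPM. How reads that match 2 places were treated in the counting is not given in the sources used here. Levels and changes of these 6 genes, and the levels of mt-Nd4 and mt-Co1, are therefore uncertain.

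**Figure D3:**
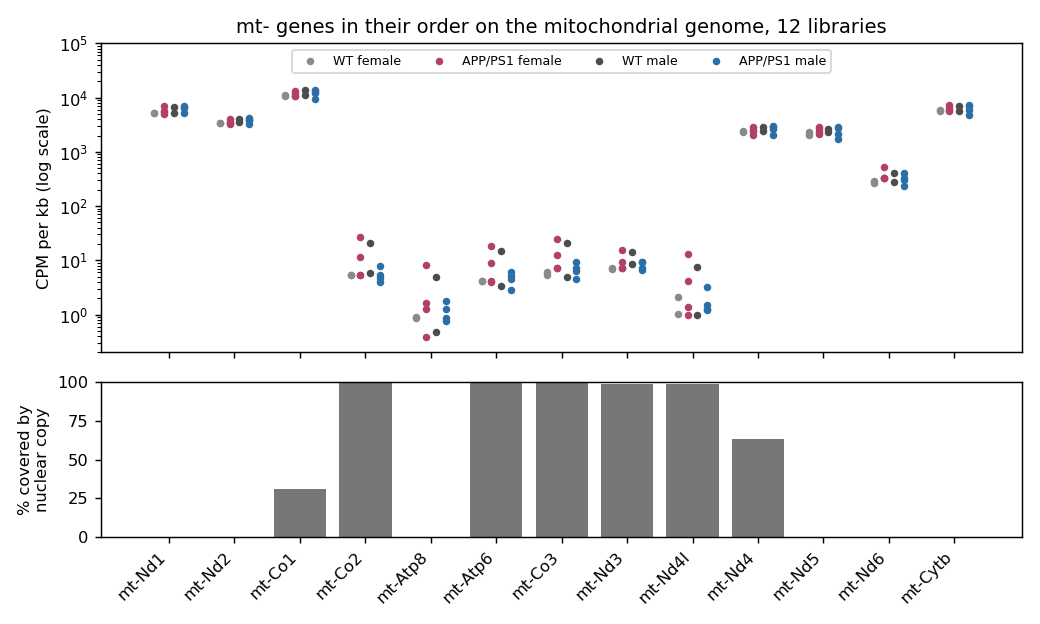
The upper panel gives the CPM per kb (log scale) of the 13 mt- genes in each of the 12 libraries, coloured by group, in their order along the mitochondrial genome; the lower panel gives the percentage of each gene covered by annotated nuclear copies of at least 99% identity. The 5 genes covered over 90% average 9.78 CPM per kb or less, with mt-Atp8 between 2 of them, whereas mt-Co1 averages 11844 CPM per kb.

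Most of the unadjusted p under 0.05 belonged to these genes of low count. mt-Co2, a core subunit of complex IV, was counted at 7.90, 3.67, 3.73 and 18.7 CPM in APP/PS1 females and at 3.65 and 3.69 CPM in WT females. In APP/PS1 males mt-Co2 was at 5.34, 3.60, 3.17 and 2.70 CPM, and in WT males it was at 14.3 and 4.04 CPM. APP/PS1 female 4 and WT male 1 were the 2 highest libraries for each of the 6 genes of low count. The groups overlap for mt-Co2, whereas for mt-Co3 all APP/PS1 females lay above both WT females. The log2 fold change of mt-Co2 was 0.58 ± 0.54 (SE) in females and -1.23 ± 0.49 in males, with adjusted p = 0.803 and 0.921 by edgeR, and the interaction was 1.81 ± 0.74 (adjusted p = 0.998). Without WT male 1 the male value was -0.35 ± 0.64. mt-Nd3, a complex I subunit, was -0.56 ± 0.21 in males (adjusted p = 0.784 by edgeR) and -0.25 ± 0.27 without WT male 1. With the counts of the copies added to their genes, an alternative chosen after seeing the data, the interaction of mt-Co2 was 1.04 ± 0.70.

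Among the abundant mt- genes other than mt-Nd6 the averaged differences were small. mt-Co1 was at 16657, 16811, 18780 and 20815 CPM in APP/PS1 females, 16397 and 17185 CPM in WT females, 21503, 20136, 18487 and 14553 CPM in APP/PS1 males and 21267 and 16994 CPM in WT males. Its averaged log2 fold change was -0.02 ± 0.05 (adjusted p = 0.935 by edgeR). mt-Cytb gave -0.04 ± 0.06, mt-Nd1 gave 0.02 ± 0.05, mt-Nd2 gave -0.01 ± 0.05, mt-Nd4 gave -0.05 ± 0.06 and mt-Nd5 gave -0.01 ± 0.08. mt-Nd6 was at 173.2, 172.0, 172.2 and 271.0 CPM in APP/PS1 females and at 139.9 and 148.6 CPM in WT females. In APP/PS1 males mt-Nd6 was at 213.6, 157.9, 169.9 and 119.9 CPM and in WT males at 210.8 and 147.2 CPM. All APP/PS1 females were above both WT females for mt-Nd6, while the males overlapped. Between APP/PS1 females and males mt-Nd6 differed by 0.30 ± 0.10 in log2 (unadjusted p = 0.0170, adjusted p = 0.856 by edgeR). The 2 mt- rRNA rows, which are not members, summed to between 6839 CPM in APP/PS1 male 4 and 11201 CPM in APP/PS1 male 2.

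Complex I, which oxidises NADH, had 36 of its 37 nuclear genes tested, with a median level of 51.5 CPM per kb. Ndufa4, a small subunit since found with complex IV, was the highest per kb at 142.2 CPM per kb. The averaged log2 fold changes of the 36 ran from -0.05 to 0.09. Ndufs4, an accessory subunit needed for a stable complex I, had the smallest p. It was at 57.2, 57.8, 63.2 and 74.7 CPM in APP/PS1 females, 51.2 and 57.0 CPM in WT females, 69.0, 68.1, 63.3 and 53.0 CPM in APP/PS1 males and 63.3 and 57.2 CPM in WT males. The females did not overlap, the males did, and the averaged value was 0.09 ± 0.05 (unadjusted p = 0.0898, adjusted p = 0.605 by edgeR). Ndufs6 and Ndufb3, also accessory subunits, gave 0.07 ± 0.06 and 0.06 ± 0.06.

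Complex II, succinate dehydrogenase, is the one complex made wholly in the nucleus and also an enzyme of the citrate cycle. Its flavoprotein Sdha was at 395.8, 411.6, 425.8 and 431.1 CPM in APP/PS1 females, 398.5 and 415.5 CPM in WT females, 421.6, 416.1, 427.5 and 397.1 CPM in APP/PS1 males and 429.0 and 416.4 CPM in WT males. The groups overlap, and the averaged value was -0.01 ± 0.04 (adjusted p = 0.966 by edgeR). The iron-sulphur subunit Sdhb gave -0.01 ± 0.04, and the membrane anchors Sdhc and Sdhd gave -0.06 ± 0.06 and -0.0016 ± 0.05.

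Complex III passes electrons from ubiquinol to cytochrome c, and all 8 of its nuclear genes were tested, at a median of 95.7 CPM per kb. Uqcr10, a small subunit, was the highest of these at 158.9 CPM per kb. Uqcrc1, a core subunit, was the 1 member for which all APP/PS1 males lay below both WT males. It was at 195.9, 192.3, 192.4 and 193.8 CPM in APP/PS1 males and 199.7 and 203.9 CPM in WT males, against 172.2, 199.97, 206.0 and 201.1 CPM in APP/PS1 females and 202.2 and 196.3 CPM in WT females. The female groups overlap, and the averaged value was -0.05 ± 0.04 (adjusted p = 0.792 by edgeR). Uqcrh and Uqcr11 gave 0.04 ± 0.06 and -0.03 ± 0.05.

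Complex V had 17 of 18 nuclear genes tested, and Atp5b, the catalytic beta subunit, was the highest at 260.8 CPM per kb. Atp5b was at 1038, 1118, 1125 and 1175 CPM in APP/PS1 females, 1044 and 1094 CPM in WT females, 1097, 1129, 1141 and 1039 CPM in APP/PS1 males and 1160 and 1102 CPM in WT males. The groups overlap, with an averaged value of -0.01 ± 0.04 (adjusted p = 0.977 by edgeR). Atp5d, a subunit of the central stalk, gave -0.07 ± 0.05. Atp5s, which carries the Atp5 symbol but is not a subunit of the enzyme, gave 0.06 ± 0.06. Atp5o, the stalk subunit that confers oligomycin sensitivity, gave 0.16 ± 0.15, but it has 2 identifiers in the table, 1 of them with 0 counts, and 12.3% of its exonic bases overlap another gene of the same strand. Its 5.11 CPM per kb, the lowest of complex V, is therefore uncertain. Exons of 26 of the 85 nuclear genes overlap a gene on the other strand, and whether the counting used strand is not given in the sources used here. Atp5mpl, singled out after its values were seen, was at 65.8, 58.4, 61.4 and 87.1 CPM in APP/PS1 females, 52.5 and 61.6 CPM in WT females, 66.9, 71.5, 61.7 and 50.04 CPM in APP/PS1 males and 76.8 and 57.2 CPM in WT males. Its groups overlap, and its interaction of 0.29 ± 0.11 had an unadjusted p = 0.0223 (adjusted p = 0.998 by edgeR) and was 0.14 ± 0.12 without WT male 1.

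The c-ring of the ATP synthase is encoded by 3 genes for the same mature protein. Atp5g3 stood at 96.0 CPM per kb, 2.83-fold above Atp5g2 and 3.41-fold above Atp5g1. In CPM, not divided by length, Atp5g3, Atp5g2 and Atp5g1 averaged 209.4, 56.7 and 138.3. Whether Atp5g1 ranks below Atp5g2 thus depends on the division by exonic length. The averaged log2 fold changes of the 3 genes, in the order given, were -0.02 ± 0.05, 0.04 ± 0.06 and -0.04 ± 0.05.

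Complex IV, cytochrome c oxidase, has several subunits with a common form and a form restricted to certain tissues. In each pair the common form prevailed per kb: Cox4i1 over Cox4i2 by 236.1-fold, Cox6a1 over Cox6a2 by 57.3-fold, Cox6b1 over Cox6b2 by 124.7-fold, Cox7a2 over Cox7a1 by 60.6-fold and Cox8a over Cox8b by 243.9-fold. Ndufa4 likewise stood 104.1-fold above Ndufa4l2. Cox8a was the highest nuclear member at 586.9 CPM per kb, with an averaged log2 fold change of -0.04 ± 0.06. Cox4i1 gave -0.01 ± 0.05, Cox6a1 -0.03 ± 0.05, Cox6b1 0.02 ± 0.05 and Cox7a2 0.03 ± 0.06. Cox5a and Cox5b, subunits without such pairs, gave -0.08 ± 0.06 and -0.05 ± 0.05, and Cox6a2, the muscle form, gave 0.20 ± 0.17 (adjusted p = 0.780 by edgeR).

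Some minor forms followed the choroid plexus transcripts. Cox8b, the muscle form of subunit VIII, was at 1.87 CPM in APP/PS1 female 1, 3.53 CPM in WT female 2 and 3.63 CPM in APP/PS1 male 2, the 3 libraries rich in choroid plexus markers. In the other 9 libraries it was between 0.0836 and 0.191 CPM. Cox6b2, the testis form of subunit VIb, was at 3.80, 3.97 and 5.21 CPM in those 3 libraries and between 0.921 and 1.997 CPM elsewhere. Cox7a1 was at 1.19, 2.02 and 2.63 CPM in them and between 0.611 and 1.37 CPM elsewhere, so it overlaps. The 6 striated muscle markers summed to between 4.30 and 6.54 CPM in all 12 libraries. Cox4i2, at 0.790 to 1.005 CPM, and Cox6a2, at 2.60 to 5.19 CPM, did not separate these libraries, and the common forms did not either.

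**Figure D4:**
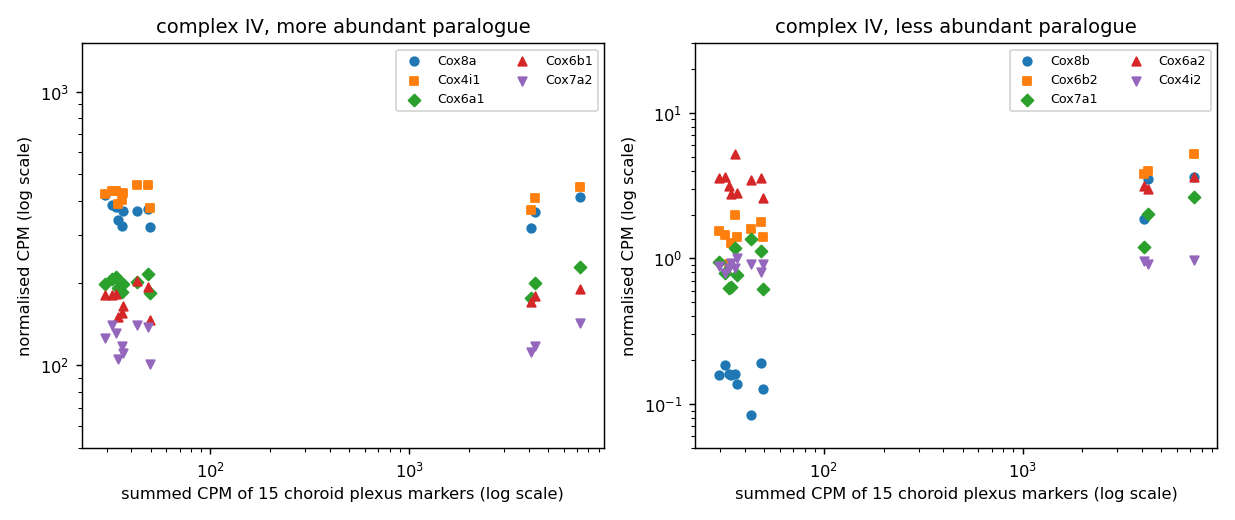
Each point is 1 gene in 1 of 12 libraries; the horizontal axis is the summed CPM of 15 choroid plexus markers and the vertical axis the gene's normalised CPM, both on log scales, with common forms of complex IV subunits on the left and restricted forms on the right. In the 3 libraries at 4095 CPM or more of choroid plexus markers Cox8b lies between 1.87 and 3.63 CPM, whereas each common form overlaps its range in the other 9.

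Promoter sequences of 3 of these paralogues are shown: Cox6a1 and Cox8a as common forms and Cox8b as the restricted form that followed the choroid plexus markers. Windows of 250 bases before to 50 bases after the start were taken from RefSeq (GRCm38.p6), where 69 of the 85 nuclear genes matched, giving 68 windows since 2 identifiers share 1. They were searched on both strands for motifs of factors known to act on respiratory genes, NRF1 (GCGCANGCG), ETS factors such as GABPA (CCGGAAG) and YY1 (AANATGGC). Matches to NRF1 on both strands may overlap. Capitals mark the matches. Cox6a1 (chr5:115348909-115349208, minus strand) holds 3 NRF1 and 1 ETS match, Cox8a (chr19:7217567-7217866, minus strand) holds 2 ETS matches, and Cox8b (chr7:140900397-140900696, minus strand) holds none.
Cox6a1: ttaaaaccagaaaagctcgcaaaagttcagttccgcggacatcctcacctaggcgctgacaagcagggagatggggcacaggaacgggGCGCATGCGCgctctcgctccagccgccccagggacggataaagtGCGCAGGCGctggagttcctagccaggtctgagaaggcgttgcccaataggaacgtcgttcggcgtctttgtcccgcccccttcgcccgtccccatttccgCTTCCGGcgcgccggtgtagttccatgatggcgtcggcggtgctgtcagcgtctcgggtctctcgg
Cox8a: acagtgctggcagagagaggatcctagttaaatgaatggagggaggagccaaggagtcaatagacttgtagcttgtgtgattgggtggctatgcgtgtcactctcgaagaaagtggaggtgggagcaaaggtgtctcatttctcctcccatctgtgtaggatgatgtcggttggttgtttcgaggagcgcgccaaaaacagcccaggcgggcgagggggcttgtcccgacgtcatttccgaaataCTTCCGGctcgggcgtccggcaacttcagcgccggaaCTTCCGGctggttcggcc
Cox8b: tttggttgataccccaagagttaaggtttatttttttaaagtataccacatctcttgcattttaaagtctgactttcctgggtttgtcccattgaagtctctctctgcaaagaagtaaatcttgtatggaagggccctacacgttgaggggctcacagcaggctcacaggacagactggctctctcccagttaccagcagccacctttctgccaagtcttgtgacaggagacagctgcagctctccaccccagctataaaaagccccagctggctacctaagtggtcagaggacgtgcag
NRF1 matches were in 29.4% of the 68 windows, ETS matches in 23.5% and YY1 matches in 25%, against 14.9%, 18.9% and 9.53% of 10310 tested coding genes and 7.03%, 9.93% and 6.96% of all 27025 genes. At least 1 of these was in 43 of 68 windows, or 63.2%, against 36.4% of tested coding genes. A further motif, of the oestrogen-related receptors (TNAAGGTCA), was in 3 windows, or 4.41%, against 0.941% of tested coding genes. A match is a sequence of letters and was not tested for binding.

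Cox7a2l, a relative of Cox7a2 that joins complexes III and IV into supercomplexes, was singled out after its values were seen. Its gene lies at chr17:83501918-83517330 on the minus strand (GRCm38). It was at 129.5, 116.8, 137.0 and 136.5 CPM in APP/PS1 females, 98.7 and 114.9 CPM in WT females, 150.2, 119.4, 94.8 and 81.4 CPM in APP/PS1 males and 116.7 and 104.5 CPM in WT males. The APP/PS1 males spanned 1.85-fold and included both the highest and the lowest library. Females exceeded males among APP/PS1 mice by 0.27 ± 0.14 in log2 (adjusted p = 0.919 by edgeR), and without APP/PS1 male 1 by 0.45 ± 0.06 (adjusted p = 0.0126), the only call of any member in any fit.

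A copy of the gene has a row of its own. Gm6969, a processed pseudogene at chr12:24638669-24639010 on the minus strand, carries a near-identical copy of the Cox7a2l coding sequence. It was at 0.329, 0.240, 0.207 and 0.0557 CPM in APP/PS1 females, 24.98 and 0.154 CPM in WT females, 0.382, 31.8, 56.5 and 49.1 CPM in APP/PS1 males and 28.3 and 25.5 CPM in WT males. The libraries thus stood at 3 levels, under 1 CPM in 6 animals, between 24.98 and 31.8 CPM in 4 and between 49.1 and 56.5 CPM in 2. The 2 animals highest for Gm6969, APP/PS1 males 3 and 4, were the lowest for Cox7a2l. Summed, Cox7a2l and Gm6969 gave 129.8, 117.1, 137.2 and 136.6 CPM in APP/PS1 females, 123.6 and 115.1 CPM in WT females, 150.6, 151.2, 151.3 and 130.5 CPM in APP/PS1 males and 144.9 and 130.01 CPM in WT males. The summed values spanned 1.31-fold, and with these counts joined (chosen after seeing the data) females were below males among APP/PS1 mice by -0.15 ± 0.05 (unadjusted p = 0.0103, adjusted p = 0.853 by edgeR). The direction of this sex difference thus turned with the counting of the copy.

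**Figure D5:**
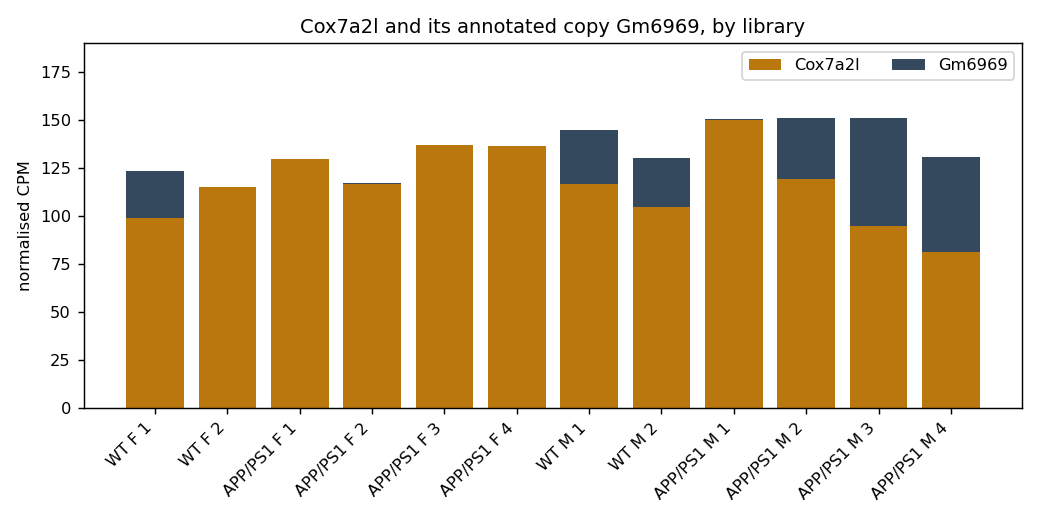
Stacked bars give the normalised CPM of Cox7a2l (lower part) and of its annotated copy Gm6969 (upper part) in each of the 12 libraries (F, female; M, male). Gm6969 is under 1 CPM in 6 libraries, including all 4 APP/PS1 females, and reaches 56.5 CPM in APP/PS1 male 3, where Cox7a2l is at 94.8 CPM.

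The gene and the copy differ at 1 place by 6 bases. The 336 bases of the Cox7a2l coding sequence aligned to 342 bases of Gm6969 with 2 substitutions outside the gap, an identity of 99.4%. A stretch of 54 bases of Cox7a2l and the matching 60 bases of Gm6969 are shown, with the bases that differ between them in capitals.
Cox7a2l: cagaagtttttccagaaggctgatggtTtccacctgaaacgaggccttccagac
Gm6969: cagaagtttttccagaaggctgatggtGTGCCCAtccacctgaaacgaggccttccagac
As background, mouse strains carry Cox7a2l in a longer and a shorter form, C57BL/6J has the shorter, and the reference genome is C57BL/6J. Counts carry no sequence, so which form each animal carried was not tested, and all 12 labels give C57BL/6J.

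The wider machinery of the pathway was read against the same background. In the averaged comparison 0 genes were called (edgeR) among 50 assembly factors, 40 genes of mitochondrial DNA expression, 16 transcriptional regulators, 17 genes of the electron carriers, 19 of the citrate cycle and 25 of the mitochondrial membrane, where 1.85% of all genes were called, a share that gives few or no calls in lists of these sizes. At an unadjusted p under 0.05 the counts were 0, 2, 1, 0, 1 and 0, against 9.47% of all genes, and the medians were 0.01, 0.04, -0.03, -0.02, 0.01 and -0.01. Ssbp1, which binds single-stranded mitochondrial DNA, had the smallest p. It was at 20.6, 18.5, 15.3 and 14.1 CPM in APP/PS1 females, 14.6 and 18.9 CPM in WT females, 16.9, 18.5, 16.0 and 18.3 CPM in APP/PS1 males and 13.9 and 13.6 CPM in WT males. The males did not overlap, the females did, and the averaged value was 0.21 ± 0.06 (adjusted p = 0.203 by edgeR). Ptcd1, an RNA-binding protein of mitochondria, gave -0.15 ± 0.06 (adjusted p = 0.455 by edgeR).

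Of the regulators, Ppargc1b, a coactivator of mitochondrial genes, gave -0.19 ± 0.08 (adjusted p = 0.415 by edgeR) and Nrf1 gave -0.14 ± 0.07. Idh2, the NADP-dependent isocitrate dehydrogenase, gave -0.20 ± 0.08 (adjusted p = 0.464 by edgeR), and Dld, a subunit shared by the 2-oxoacid dehydrogenases, gave 0.08 ± 0.04. The assembly factors Ndufaf1, of complex I, and Cox15, of complex IV, gave 0.12 ± 0.06 and -0.11 ± 0.06. Coq5 and Pdss1, of ubiquinone synthesis, gave -0.09 ± 0.05 and 0.20 ± 0.12. The mitochondrial carriers Slc25a22 and Slc25a12 gave -0.10 ± 0.05 and -0.07 ± 0.04.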

How the data were processed

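Counts per gene were analysed as deposited. The authors obtained these counts with HTSeq from STAR alignments to GRCm38, after trimming by Trimmomatic, and did not normalise them. Versions, annotation release, strand and multi-mapping options are not given in the sources used here. Of 55573 identifiers, 55480 matched GENCODE M21, which gave symbols, positions, lengths and overlaps. OXPHOS genes were chosen by symbol, and the members and lists were chosen with earlier results of these data known.

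The expression filter (log2 CPM of 1 or more in 3 libraries or more) kept 14008 genes. Scaling was by the upper quartile, and 2 RUVg factors entered as covariates, with the 5000 leading genes of an initial test left out of the controls. The robust quasi-likelihood test of edgeR 4.0.16 (in R 4.3.3, two-sided) was run with 1 model for all 12 libraries and Benjamini-Hochberg adjustment over all genes tested, and an FDR under 0.1 was called. Normalised CPM used scaled library sizes, and ± is the SE of a fitted log2 fold change. Groups came from sample titles. The labels name single mice, and the 14 within-group pairs differed by 15.5 to 73.0 chi-square per degree of freedom, beyond sampling noise. At these depths the spread between animals sets the precision of all but the scarcest genes. The procedure was tested on simulated data.

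Transcripts of the members were aligned to all GENCODE M21 transcripts with blastn 2.17.0 (alignments of at least 100 bases, copies at 99% identity). Promoter windows were from RefSeq.

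The genes named were all mt- genes and complex II genes, the 3 nuclear genes of smallest averaged p in each other complex, the highest per kb in each complex, the paralogue pairs, any called gene and the 2 of smallest p in each context list. Any gene outside this rule is marked as singled out after its values were seen. Alternatives were other tests, scalings, filters and RUV settings, a replicate block, an FDR of 0.05, leaving out libraries and, chosen after seeing the data, adding the counts of 9 nuclear copies to their genes.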

Additional observations from a re-analysis of the deposited data

Results flagged for a closer look

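In the 2 APP/PS1 groups of 4, 1 animal could stand apart from the other 3 (Dixon's test at the 95% level). This was so in 10 of 96 tests of named genes and sums. Chance gives about 1 in 20 for independent tests. These tests reuse the same animals, and the sums hold named genes, so no excess is read from the count. APP/PS1 female 4 was highest for mt-Nd6, at 271.0 CPM against 172.0 to 173.2 CPM, and for mt-Atp8, at 1.67 CPM against 0.0799 to 0.329 CPM. APP/PS1 male 1 was highest for mt-Nd4l, at 0.954 CPM against 0.356 to 0.452 CPM. APP/PS1 male 4, the lowest library of both genomes, was lowest for Ndufs6, at 40.3 CPM against 45.9 to 46.8 CPM, for Sdhd, at 79.4 CPM against 90.6 to 92.8 CPM, and for Cox6a2, at 2.60 CPM against 3.55 to 3.6 CPM. APP/PS1 female 2 was highest for Cox6a2, at 5.19 CPM against 3.15 to 3.46 CPM.

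The others were libraries rich in choroid plexus transcripts. APP/PS1 female 1 was highest for Cox8b, at 1.87 CPM against 0.0836 to 0.161 CPM. APP/PS1 male 2 was highest for Cox8b, at 3.63 CPM against 0.127 to 0.191 CPM, and for Cox6b2, at 5.21 CPM against 1.40 to 1.79 CPM.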

How the results depend on the processing

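Of the 150 counts of called OXPHOS genes obtained under the alternatives, 1 was above 0. It was for females against males in APP/PS1, where leaving out each animal gave between 0 and 1 calls, the 1 being Cox7a2l without APP/PS1 male 1. With the replicate block the counts were 0 in every comparison, and the averaged medians were 0.02 for nuclear and 0.03 for mt- genes. In their deviations from the group mean, same-numbered animals of different groups correlated between -0.67 and 0.73 over 14 pairs. In the WT groups these deviations mirror each other, so the correlations cannot decide whether the numbers pair animals. The numbers were not taken to pair animals. The averaged medians moved by less than the spread between replicates under all 24 alternatives, but their sign changed: the nuclear median was above 0 under 11 of them and the mt- median under 8. Of 935 averaged values of the 39 named genes tested, 148 had the other sign and 0 moved beyond the replicate spread. That spread is the pooled SD of single libraries within groups. It is wide beside a contrast of group means, so staying inside it is a weak check of stability. Leaving out each animal, the nuclear median ran from -0.03 without WT female 1 to 0.04 without WT female 2, and the mt- median from -0.07 without WT male 2 to 0.05 without WT male 1. Fits without a WT animal assume that the lone WT animal of that sex varies like the other groups. The averaged intervals of 9 of the 89 genes reached beyond 0.25 in log2. Among them were the low-count mt-Co2, mt-Co3, mt-Atp6 and mt-Nd3, the restricted forms Cox6a2 and Cox6b2, and Atp5o. The others were the well-expressed mt-Nd6 (174.7 CPM) and Cox7a2l (116.7 CPM), whose libraries varied within groups.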
